A study of Homo sapiens with 6 samples.

Results

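The 10 genes described here encode the NF-kB transcription factor subunits and the cytosolic proteins that restrain them. They were chosen by symbol as 5 subunit genes (NFKB1, NFKB2, REL, RELA and RELB), 2 inhibitor genes (NFKBIA and NFKBIE) and 3 feedback regulator genes (TNFAIP3, BIRC3 and TRAF1). All 10 were found among the 17646 genes listed in each library, and all 10 passed the filter on low values. RNA was sequenced from MDA-MB-231, an established human line of triple negative breast cancer. Cells had been transfected for 48 h with a control siRNA (siControl) or with an siRNA against USP32, a ubiquitin-specific protease (siUSP32), with 3 libraries in each group. The sources used here do not give the siRNA sequences, and they do not say whether the 3 libraries of a group were grown apart. The p-values below therefore rest on library-to-library spread, which may be technical.

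NF-kB dimers are held in the cytosol by inhibitors of the IkB family until receptor signals activate the IkB kinase, which marks the inhibitor for degradation and lets the dimer enter the nucleus. In the canonical route p50, cut from the NFKB1 product, pairs with RELA or REL. In the alternative route the NFKB2 product is processed to p52, which pairs with RELB. NF-kB induces many of its own regulators, among them NFKBIA, TNFAIP3, BIRC3, TRAF1, NFKB2 and REL, so the transcripts of these genes form feedback loops. MDA-MB-231 cells are known for constitutive NF-kB activity.

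Because these loops run through DNA sites for NF-kB, the sites that lie just before RefSeq start sites of these genes are shown first. RefSeq promoter windows of 300 bases on GRCh38.p14, 250 of them upstream of a start site, were held for 8 of the 10 genes, in 14 windows. RELB and NFKBIE had no entry. The 10-base NF-kB consensus was searched on both strands. It was present in 7 of the 14 windows and in 6 of the 8 genes, against 11.3% of all 35116 windows and 17.6% of 9860 tested genes with an entry. Capitals mark the bases of the consensus match, which in NFKBIA, TNFAIP3 and BIRC3 lies on the opposite strand, and each line reads in the direction of transcription.
NFKB1: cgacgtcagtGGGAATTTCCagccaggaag
NFKB2 start 2: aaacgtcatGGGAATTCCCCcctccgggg
NFKB2 start 3: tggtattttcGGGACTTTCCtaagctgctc
REL: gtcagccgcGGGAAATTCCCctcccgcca
NFKBIA: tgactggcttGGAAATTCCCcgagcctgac
TNFAIP3: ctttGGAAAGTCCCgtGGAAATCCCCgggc
BIRC3: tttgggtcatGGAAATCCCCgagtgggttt

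These stretches lie at chr4:102501300-102501329 (NFKB1, plus strand), chr10:102394462-102394490 and chr10:102395674-102395703 (NFKB2, plus strand), and chr2:60881518-60881546 (REL, plus strand). The others lie at chr14:35404811-35404840 (NFKBIA, minus strand), chr6:137867188-137867217 (TNFAIP3, plus strand) and chr11:102317275-102317304 (BIRC3, plus strand). The gene bounds given below come from GENCODE 29, whose starts differ from the RefSeq start sites used here. By those bounds both NFKB2 stretches and the TNFAIP3 stretch lie inside the gene, as does the REL stretch but for its first bases. In REL and at the second start of NFKB2 the capitals join overlapping matches on both strands, and TNFAIP3 holds 2 matches separated by 2 bases. Counted from the start site, the printed matches begin at position -49 in NFKB1, -47 in REL, -81 in NFKBIA, -67 in TNFAIP3 and -199 in BIRC3, and at -107 and -21 from the respective starts of NFKB2. A further match in BIRC3 and 1 in each of the 2 NFKB2 windows are not printed. No match was found in the windows of RELA or TRAF1, which says only that these letters are not in those windows. A match describes the sequence and does not show binding. Among tested genes with an entry, 30% of the 1736 with a match were called higher and 45.6% lower, and of the 8124 without one 34.9% were higher and 39.5% lower.

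Levels are given in FPKM, that is sequenced fragments per kilobase of transcript relative to the library's mapped total. Differences are siUSP32 minus siControl on the log2(FPKM + 1) scale, which understates the change of low genes. They were tested with limma over 12003 genes, and a gene counted as called where its Benjamini-Hochberg adjusted p was under 0.05. USP32 itself was at 7.48 to 8.32 FPKM in siControl and 1.88 to 2.01 in siUSP32, a 3.96-fold fall. The FPKM of all listed genes summed to 686376 to 694831 in siControl and 855573 to 948641 in siUSP32, highest in siUSP32 library 2. Levels of the line's markers were high for VIM, CD44, FN1 and KRT18 in siControl (summed 4270.1 to 4344.8 FPKM). In siUSP32 the same markers summed to 4255.2 to 4726.4 FPKM, but they moved apart. From siControl to siUSP32 the mean fell from 421 to 10.6 FPKM for FN1 and from 425 to 135 for CD44. It rose from 1085.2 to 1657.9 FPKM for VIM, while KRT18, at 2370.2 and 2609.4, was not called. The listed markers expected to be low in this line (ESR1, ERBB2, CDH1 and EPCAM) summed to 22.6 to 25.2 FPKM in siControl and 7.7 to 8.7 in siUSP32. PGR, also chosen, was not listed. In siControl ESR1 (mean 0.5 FPKM) and CDH1 (0.473) were low, while ERBB2 (12) and EPCAM (10.5) made up most of the sum. Of the 8 markers of other cell types 5 were listed, and they summed to 7.86 to 9.08 FPKM in siControl and 5 to 5.9 in siUSP32, a difference whose part in the results was not tested. PTPRC, CD3E and ALB were at 0.05 FPKM or less in each library, PECAM1 was at 0.39 to 1.1 and CD14 at 4.58 to 8.12.

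Of the 10 NF-kB genes 6 were called higher in siUSP32, 3 lower and 1, NFKB1, was not called. Over all tested genes 33.3% were called higher and 41.3% lower, 74.6% in all. The median log2 difference was 0.28 for the 10 genes and -0.06 over all tested genes. The FPKM ranges of the groups did not overlap for 9 of the 10, against 77.8% of all tested genes. A stretch of 19 hydrophobic residues, as in membrane and secreted proteins, is absent from the products of 8 of the 10 genes, all but NFKB1 and NFKBIE, whose products are soluble. Of the 8055 tested genes without such a stretch 40.5% were called higher and 31% lower. NFKB2, NFKBIE and TRAF1 were called higher and TNFAIP3 lower under each scaling tried, whereas the calls of the other 6 genes depended on scaling or on the correction for transcript length, as given with each. Rescaling each library to the same sum (TPM) moved the median over all genes to -0.38, and quantile normalization moved it to 0.10. With TPM 3 of the 10 genes were higher and 4 lower, against 14.4% and 62.2% of all tested genes. Quantile normalization gave 4 higher and 3 lower, against 43.8% and 30%, and the correction for transcript length gave 7 higher and 1 lower, against 34.6% and 35.4%. The median of the 10 genes was -0.08 with TPM, 0.18 quantile-normalized and 0.31 length-corrected, and under the last of these the median of all genes was 0.01. Bulk RNA does not tell fewer cells with a transcript from less of it per cell.

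**Figure D1:**
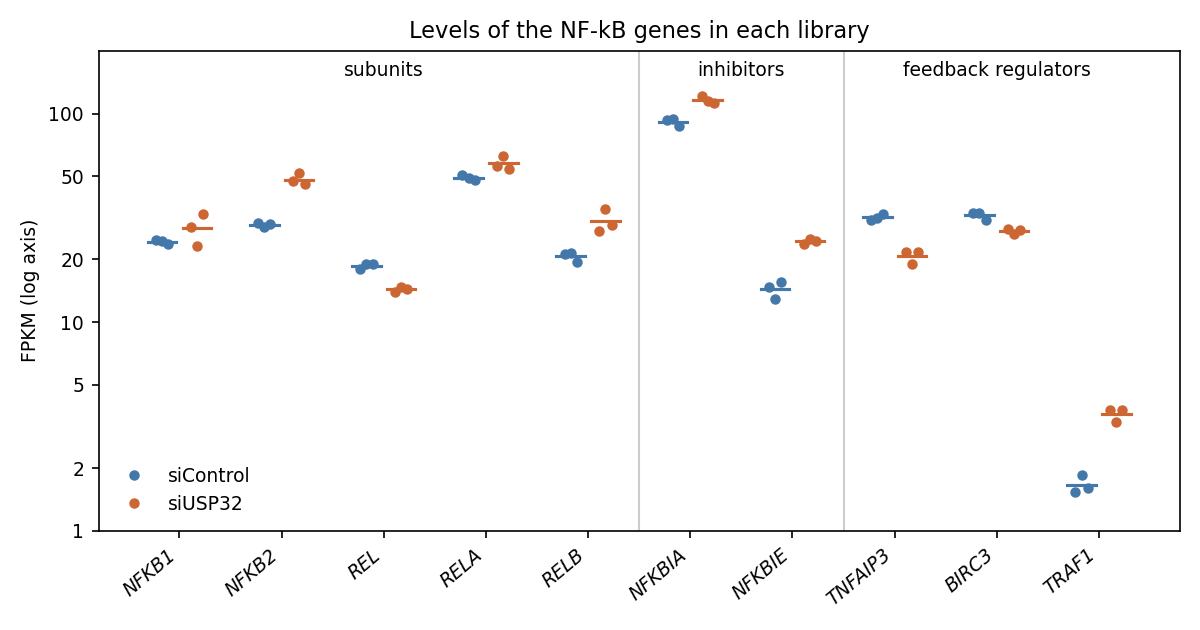
FPKM on a log axis of the 10 NF-kB genes in each library, with points for single libraries, bars for group means, siControl in blue and siUSP32 in orange. NFKB2, NFKBIE and TRAF1 lay higher in all 3 siUSP32 libraries and TNFAIP3 lower, while the 3 siUSP32 values of NFKB1 spread from 23.26 to 33.13 FPKM.

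Among the subunits, NFKB2 and RELB, the pair of the alternative route, had the larger rises in FPKM as deposited. With the length correction the log2 difference of RELB (0.44) was close to that of NFKB1 (0.41), a subunit of the canonical route. NFKB2 (Entrez 4791, chromosome 10, 102394110 to 102402529 of GRCh38, plus strand) was at 29.79, 28.52 and 29.68 FPKM in siControl and 47.3, 51.74 and 45.81 in siUSP32. Each siUSP32 library lay above each siControl library, a 1.65-fold rise. Its log2 difference of 0.70 ± 0.06 (SE, limma adjusted p = 5.63e-06) became 0.34 with TPM (limma adjusted p = 3.94e-04).

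RELB (Entrez 5971, chromosome 19, 45001430 to 45038198, plus strand) was at 21.14, 21.44 and 19.41 FPKM in siControl and 27.47, 34.76 and 29.25 in siUSP32, with the highest value in siUSP32 library 2. The groups did not overlap and the mean rose 1.48-fold. The log2 difference of 0.53 ± 0.09 (SE, limma adjusted p = 4.06e-04) was 0.18 with TPM and no longer called (limma adjusted p = 0.0611).

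In FPKM as deposited RELA, REL and NFKB1, the subunits of the canonical route, had smaller log2 differences, but with TPM that of REL (-0.70) was the largest in size of the 5 subunits. RELA (Entrez 5970, chromosome 11, 65653596 to 65663094, minus strand), which carries a strong transactivation domain, was at 50.74, 49.17 and 47.81 FPKM in siControl. In siUSP32 it was at 56.24, 62.93 and 54.07, a 1.17-fold rise with no overlap. Its log2 difference of 0.22 ± 0.06 (SE, limma adjusted p = 0.0106) turned to -0.14 with TPM (limma adjusted p = 0.0420) and lost its call at 0.10 after quantile normalization (limma adjusted p = 0.147). The direction for RELA was therefore set by the scaling.

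REL (Entrez 5966, chromosome 2, 60881521 to 60931610, plus strand), which encodes c-Rel, was the subunit gene called lower. Its FPKM was 17.94, 18.96 and 19.08 in siControl and 13.92, 14.75 and 14.47 in siUSP32, a 1.3-fold fall with no overlap (log2 difference -0.35 ± 0.06 SE, limma adjusted p = 3.44e-04). The difference was -0.70 with TPM and -0.23 after quantile normalization. The principal transcript of REL has 11255 bases, against a median of 3051 over tested genes, and after correction for transcript length the difference turned to 0.22 and was called higher (limma adjusted p = 0.0206).

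NFKB1 (Entrez 4790, chromosome 4, 102501329 to 102617302, plus strand) was at 24.74, 24.52 and 23.63 FPKM in siControl and 28.49, 23.26 and 33.13 in siUSP32. The groups overlapped because siUSP32 library 2 lay below all siControl libraries, and the difference did not pass (0.20, 95% interval -0.05 to 0.44, limma adjusted p = 0.124). Without siUSP32 library 2 it was 0.33 and called (limma adjusted p = 0.00128), and without siUSP32 library 3 it was 0.08. It was called with the length correction at 0.41 and with median-ratio scaling at 0.27, and was -0.16 with TPM, over a range of limma adjusted p of 0.00128 to 0.402 in 15 alternatives.

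The share of each subunit in the summed FPKM of all 5 does not depend on a factor by which a library is scaled, and FPKM is a level per length. That sum was 139.6 to 144.4 FPKM in siControl and 173.4 to 187.4 in siUSP32. NFKB2 held 20.6%, 20% and 21.3% of it in siControl and 27.3%, 27.6% and 25.9% in siUSP32. REL held 12.4%, 13.3% and 13.7%, then 8.0%, 7.9% and 8.2%. The share of NFKB2 was thus higher by 6.3 percentage points and that of REL lower (-5.1 points), with no overlap between groups for either. RELA went from 34.6% ± 0.47 to 32.2% ± 1.5 and RELB from 14.5% ± 0.575 to 17% ± 1.4 (SD, n = 3), also without overlap. NFKB1 went from 17.1% to 15.9%, with overlap. By exact permutation each subunit but NFKB1 (p = 0.7) reached p = 0.1, which is the smallest possible with 3 libraries a group, and 0.125 after Benjamini-Hochberg adjustment over the 5. With the length correction the differences were 5.87 points for NFKB2, -1.41 for REL, -4.91 for RELA and 0.293 for RELB.

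**Figure D2:**
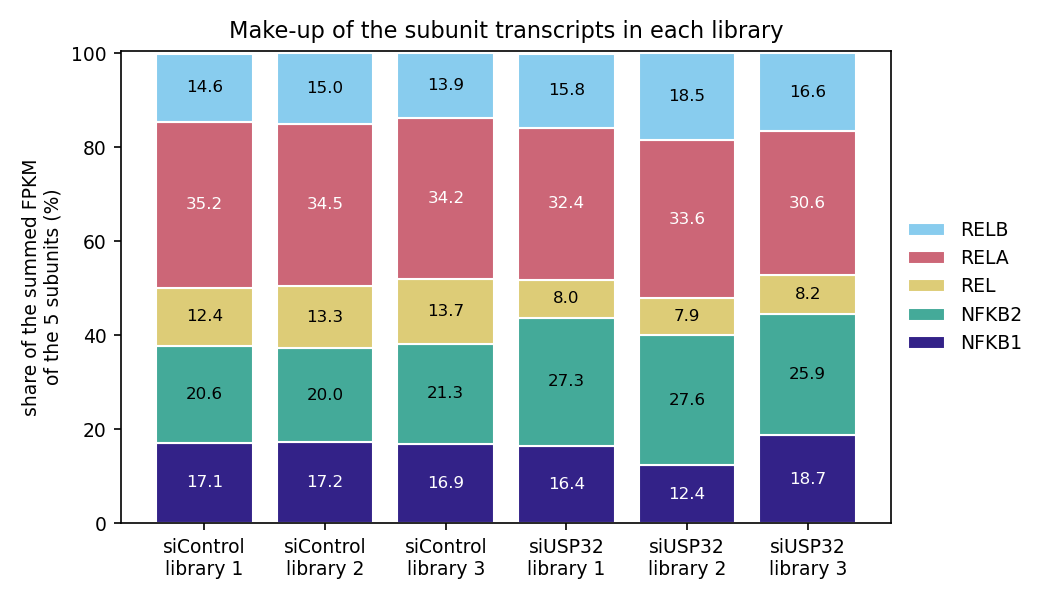
Stacked bars of the percentage that each of the 5 subunit genes holds in their summed FPKM, one bar per library. The NFKB2 segment is 20% to 21.3% in siControl and 25.9% to 27.6% in siUSP32, and the REL segment narrows from 12.4% to 13.7% down to 7.9% to 8.2%, a difference that was smaller after correction for transcript length (-1.41 points).

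The inhibitor genes NFKBIA and NFKBIE, whose products IkB-alpha and IkB-epsilon mask the nuclear localization signals of NF-kB dimers, were both called higher. NFKBIA (Entrez 4792, chromosome 14, 35401511 to 35404749, minus strand) had the highest level of the 10 genes, at 93.11, 93.68 and 87.19 FPKM in siControl and 121.33, 114.86 and 112.19 in siUSP32. The groups did not overlap, with a 1.27-fold rise (log2 difference 0.34 ± 0.05 SE, limma adjusted p = 2.85e-04). That rise was not called with TPM (-0.02), after quantile normalization (0.11) or with the length correction (0.05), with limma adjusted p of 0.736, 0.0962 and 0.408, and its principal transcript is short, at 1558 bases.

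NFKBIE (Entrez 4794, chromosome 6, 44258166 to 44265788, minus strand) was at 14.72, 12.86 and 15.66 FPKM in siControl and 23.75, 24.94 and 24.51 in siUSP32. All siUSP32 values were above all siControl values, a 1.69-fold rise. On the log2 scale it was higher by 0.72 ± 0.07 (SE, limma adjusted p = 1.98e-05), by 0.69 with the length correction and by 0.37 with TPM, and the call held in 15 of 15 alternatives.

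The feedback regulators moved in both directions. TNFAIP3 (Entrez 7128, chromosome 6, 137867188 to 137883312, plus strand) encodes A20, a ubiquitin-editing enzyme that ends signalling from the TNF receptor. It was at 31.0, 31.69 and 32.9 FPKM in siControl and 21.7, 19.05 and 21.59 in siUSP32, a 1.53-fold fall with no overlap. This came to -0.60 ± 0.06 on the log2 scale (SE, limma adjusted p = 2.77e-05). It was -0.95 with TPM and -0.31 with the length correction, and the call held in 15 of 15 alternatives.

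BIRC3 (Entrez 330, chromosome 11, 102317450 to 102339403, plus strand) encodes cIAP2, a ubiquitin ligase of the TNF receptor complex. Its FPKM was 33.44, 33.34 and 30.86 in siControl and 27.97, 26.45 and 27.53 in siUSP32, a 1.19-fold fall with no overlap. The log2 difference of -0.24 ± 0.05 (SE, limma adjusted p = 0.00295) became 0.08 with the length correction and was not called (limma adjusted p = 0.208). With TPM it was -0.60.

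TRAF1 (Entrez 7185, chromosome 9, 120902393 to 120929173, minus strand), an adaptor that binds TRAF2 and the cIAP proteins, had the lowest level of the 10 genes and the largest fold among them. It was at 1.53, 1.86 and 1.61 FPKM in siControl and 3.78, 3.33 and 3.78 in siUSP32, a 2.18-fold rise with no overlap. This came to 0.80 ± 0.08 on the log2 scale (SE, limma adjusted p = 1.74e-05), 0.54 with TPM and 1.20 with the length correction. Its call held in 14 of 14 alternatives, the filter at a mean of 5 FPKM leaving it out.

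**Figure D3:**
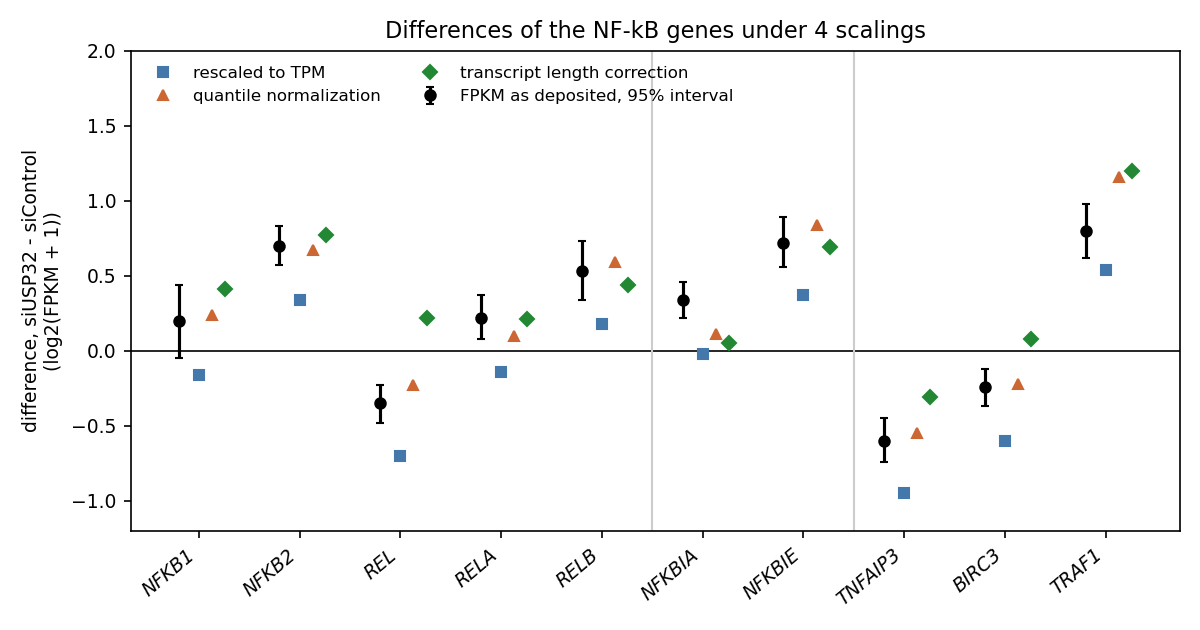
Log2 differences of the 10 NF-kB genes, siUSP32 minus siControl, with 95% intervals for the FPKM as deposited (black) and point values after rescaling to TPM (blue), quantile normalization (orange) and correction for transcript length (green). NFKB2, RELB, NFKBIE and TRAF1 lie above 0 and TNFAIP3 below 0 under all 4, RELB without a call by TPM, while NFKB1, RELA and NFKBIA cross 0 with TPM and REL and BIRC3 cross it with the length correction.

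The order of the levels changed between the groups. In siControl it ran NFKBIA, RELA, BIRC3, TNFAIP3, NFKB2, NFKB1, RELB, REL, NFKBIE and TRAF1, and of neighbours in this order only BIRC3 and TNFAIP3 had overlapping ranges. In siUSP32 it ran NFKBIA, RELA, NFKB2, RELB, NFKB1, BIRC3, NFKBIE, TNFAIP3, REL and TRAF1, with overlap of RELB with NFKB1 and of NFKB1 with BIRC3. As percentile ranks among the tested genes of the same library, NFKBIE went from 52.4 to 58.1 in siControl to 69.8 to 70.9 in siUSP32. NFKB2 went from 73.0 to 73.9 up to 81.1 to 82.8, and TNFAIP3 from 74.9 to 76.0 down to 65.3 to 67.9. NFKBIA stood at 90.4 to 91.2 and then at 91.3 to 92.1, and the ranks of RELA overlapped, at 82.9 to 83.8 and 83.5 to 85.4.

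Ratios between transcripts within a library, which a scaling factor does not touch, were compared for 6 pairs. The ratio of NFKBIE to REL was 0.821, 0.678 and 0.821 in siControl and 1.71, 1.69 and 1.69 in siUSP32, without overlap. The log2 difference of this ratio was 1.14, and 0.50 with the length correction. TNFAIP3 to RELA went from 0.648 ± 0.0387 to 0.363 ± 0.0523 (SD, n = 3), also without overlap, with log2 differences of -0.85 and, length-corrected, -0.54. NFKBIA to REL went from 4.9 to 8.09 without overlap, but its log2 difference of 0.72 was -0.18 with the length correction. For these 3 pairs the exact permutation test gave p = 0.1, the smallest possible, and 0.2 after adjustment over the 6. The ratio of IkB-alpha to RELA transcripts overlapped between groups, at 1.84, 1.91 and 1.82 against 2.16, 1.83 and 2.07 (exact permutation p = 0.3). NFKB2 to RELB (1.42 and 1.59, exact permutation p = 0.2) and NFKB1 to RELA (0.494 and 0.496, exact permutation p = 1) overlapped as well.

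The other genes of the pathway were taken from 5 lists written from general knowledge. Of 12 receptor genes 8 were tested, and 7 fell and 1 rose, with a median log2 difference of -0.97 (length-corrected -0.95). TLR2, a receptor for bacterial lipoproteins, fell 6.21-fold from 15.2 ± 0.429 to 2.45 ± 0.18 FPKM (SD, n = 3, limma adjusted p = 8.95e-09). TNFRSF1A, the main TNF receptor, fell 2.51-fold from 52.1 ± 0.696 to 20.7 ± 0.766 FPKM (limma adjusted p = 3.79e-08). TNFRSF12A, the receptor for TWEAK, which signals to the alternative route, was the receptor that rose, from 377 ± 9.6 to 700.4 ± 83 FPKM (log2 difference 0.88, 0.43 with the length correction and after quantile normalization, and 0.51 with TPM). All 8 encode proteins with a hydrophobic segment, a class in which 62.5% of 3902 tested genes were called lower and 18.7% higher.

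Of 30 adaptor and kinase genes 11 rose, 10 fell and 9 were not called, with a median of 0.10 (length-corrected 0.22, and -0.22 with TPM). In FPKM as deposited these are 36.7% higher and 33.3% lower, near the 33.3% and 41.3% of all tested genes. Of tested genes without a hydrophobic segment, 40.5% were higher and 31% lower. The length correction gave 18 higher and 8 lower, against 34.6% and 35.4% of all tested genes. Quantile normalization gave 15 and 8, against 43.8% and 30%, and TPM gave 6 and 16, against 14.4% and 62.2%. TRAF2, the partner of TRAF1, rose 1.66-fold from 23.9 ± 0.69 to 39.6 ± 1.71 FPKM (log2 difference 0.71, 0.35 with TPM). IKBKG, the regulatory subunit of the IkB kinase, rose from 12.6 to 23.7 FPKM (log2 difference 0.85, 0.50 with TPM), a value that is uncertain because the gene has a near-identical pseudogene copy. TRAF5, another TRAF adaptor, fell 2.12-fold from 7.6 to 3.59 FPKM (log2 difference -0.91, -0.57 after quantile normalization). TAB3, an adaptor of the kinase TAK1, fell 1.92-fold from 11.6 to 6.04 FPKM (log2 difference -0.84, -0.42 with the length correction).

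Of 18 other inhibitor genes 17 were tested, of which 8 rose, 4 fell and 5 were not called, with a median of 0.06 (length-corrected 0.16, and -0.24 with TPM). These are 47.1% higher and 23.5% lower, against 33.3% and 41.3% of all tested genes and 40.5% and 31% of those without a hydrophobic segment. Quantile normalization gave 8 higher and 2 lower, against 43.8% and 30% of all tested genes. The length correction gave 9 and 2, against 34.6% and 35.4%, and TPM gave 5 and 10, against 14.4% and 62.2%. NFKBIB, which encodes IkB-beta, was at 14.44, 14.16 and 13.8 FPKM in siControl and 33.13, 39.38 and 31.99 in siUSP32, a 2.46-fold rise without overlap (log2 difference 1.24, 0.82 with the length correction, limma adjusted p = 8.87e-07). TNIP1, a partner of A20, rose 1.63-fold from 163 ± 3.52 to 265 ± 11 FPKM (log2 difference 0.70, 0.33 with TPM and 0.39 after quantile normalization). The deubiquitinase genes OTULIN, which acts on linear ubiquitin chains, and OTUD7B fell 1.39-fold and 1.48-fold. These log2 differences, -0.43 and -0.47, became 0.04 and 0.03 with the length correction, where neither was called, and OTUD7B also lost its call after quantile normalization (-0.12).

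Known target genes changed in both directions. Of 21 genes for secreted or membrane proteins 20 were tested, of which 11 rose, 8 fell and 1 was not called, and the median was 0.38 (-0.03 length-corrected, 0.02 both with TPM and quantile-normalized). That is 55% higher and 40% lower, against 33.3% and 41.3% of all tested genes, and against 18.7% and 62.5% of those with a hydrophobic segment, a class that holds 15 of the 20. The count of rises depended on scaling. Quantile normalization gave 9 higher and 5 lower, against 43.8% and 30% of all tested genes. The length correction gave 8 and 8, against 34.6% and 35.4%, and TPM gave 8 and 9, against 14.4% and 62.2%. The cytokine genes CSF2 and IL1B rose 4.48-fold and 3.58-fold, CSF2 from 45.5 ± 1.41 to 204 ± 20.9 FPKM and IL1B from 134 ± 1.38 to 479 ± 12.2 FPKM (limma adjusted p = 1.7e-08 and 3.16e-09). The adhesion receptor genes VCAM1 and ICAM1 fell 7.16-fold and 3.44-fold, VCAM1 from 8.33 ± 0.316 to 1.16 ± 0.299 FPKM and ICAM1 from 357 ± 0.996 to 104 ± 1.01 FPKM (limma adjusted p = 1.5e-07 and 2.95e-09). By the measure used here VCAM1 and ICAM1 belong to the class with a hydrophobic segment, and CSF2 and IL1B do not, although their products are secreted. Across this list, rises and falls each occurred both with and without such a segment.

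Of 20 target genes for intracellular proteins 11 rose, 7 fell and 2 were not called, and the median was 0.40 (0.04 with TPM, 0.19 length-corrected). That is 55% higher and 35% lower, against 33.3% and 41.3% of all tested genes and 40.5% and 31% of those without a hydrophobic segment. Quantile normalization gave 11 higher and 7 lower, against 43.8% and 30% of all tested genes. The length correction gave 10 and 6, against 34.6% and 35.4%, and TPM gave 8 and 9, against 14.4% and 62.2%. BCL2A1, at a mean of 0.78 FPKM in siControl and 1.7 in siUSP32, passed the filter only through its siUSP32 level, and without it 10 of 19 rose and 7 fell, with a median of 0.33. RIPK2, a kinase that carries NOD receptor signals to NF-kB, rose 2.09-fold from 20.1 ± 0.306 to 41.9 ± 0.869 FPKM (log2 difference 1.02, 0.67 with TPM), and the transcription factor gene MYC rose 2.93-fold from 4.53 to 13.3 FPKM. CCND1, which encodes cyclin D1, fell 5.72-fold from 236 ± 0.709 to 41.2 ± 2.31 FPKM. PTGS2, which encodes the prostaglandin synthase COX-2 of the endoplasmic reticulum membrane, fell 3.59-fold from 77.1 ± 2.38 to 21.5 ± 3.13 FPKM.

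**Figure D4:**
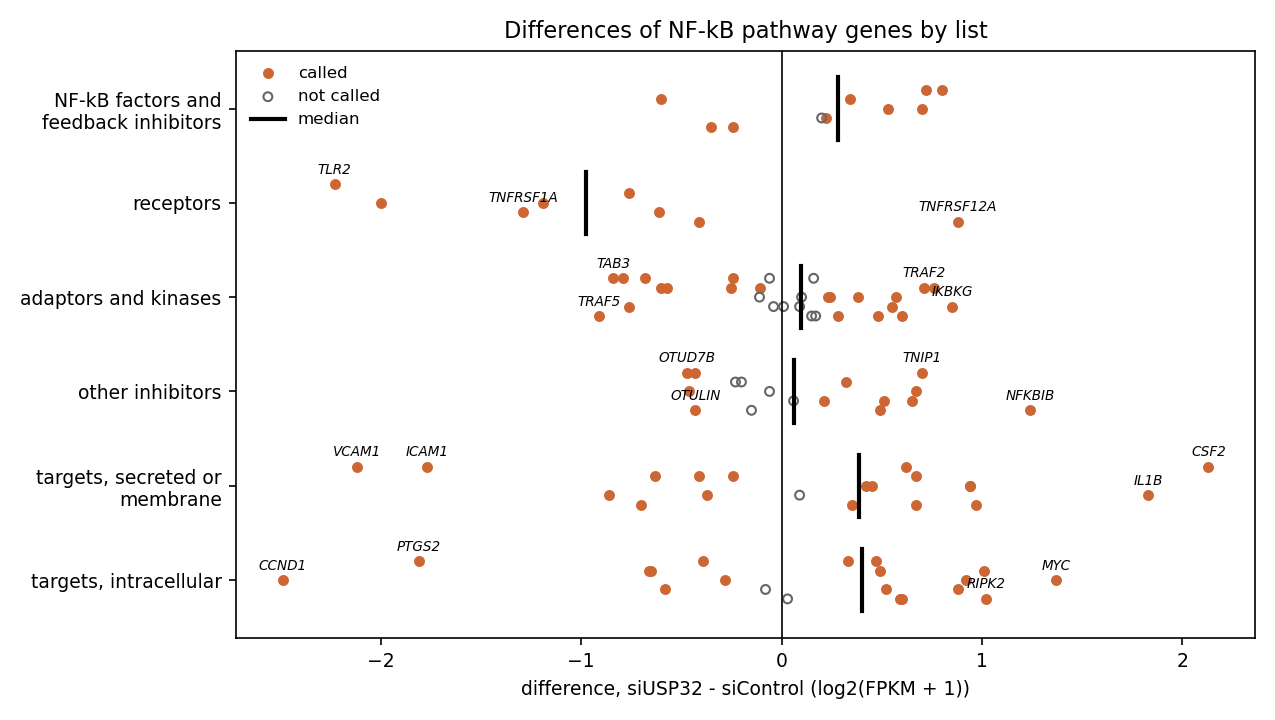
Log2 differences, siUSP32 minus siControl, of tested genes in the NF-kB set and 5 pathway lists, with filled points for called genes, open points for the others and a black bar for each list's median. Receptors lie mostly below 0 with a median of -0.97, and both target lists hold large rises and falls, with medians of 0.38 and 0.40 that were 0.02 and 0.04 with TPM.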

How the data were processed

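RNA from 6 libraries of MDA-MB-231 cells (3 siControl, 3 siUSP32) was harvested in Trizol and sequenced after an MGISEQ-2000RS library protocol, per the labels' protocols. The authors deposited FPKM per gene with 2 decimals, per the file headers, and the submitters' processing notes name the build GRCh38.p13. Aligner, counting tool, annotation, strand handling and filters were not given in the sources used here. FPKM is not a count, so no count model was used. The smallest nonzero value is 0.01, the rounding step, held by 155 to 229 genes per library, so whole reads could not be recovered and read depth is unknown. Within a group, 0.45% to 0.783% of tested genes had equal values in a pair of libraries, so none was a copy.

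Values were analysed as log2(FPKM + 1) for 12003 genes whose mean FPKM was 1 or more, with limma 3.58.1 in R 4.3.3 (mean-variance trend, no covariate, 2-sided, Benjamini-Hochberg over all tested genes). Folds are ratios of mean FPKM. Shares and ratios were compared with 2-sided exact permutation tests. The fit was first run on simulated data in which a small part of the genes was changed. Most genes were called in the real data, so that run does not test the calls made here. Transcript length, gene bounds and hydrophobic segments (19 residues with mean hydropathy of at least 1.6) came from GENCODE 29 (principal transcript, longest coding sequence), found for 99.6% of tested genes, which need not be the one the authors divided by. The length correction was a robust loess curve (span 0.5) per library. The genes, lists and alternatives were chosen with earlier results of these data known. The text names the 10 genes, USP32, the markers of the line and of other cell types and, per pathway list, up to 2 called rises and 2 called falls with the smallest adjusted p. BCL2A1 is named outside this rule, chosen after its values were seen, because it passed the filter through siUSP32 alone.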

Additional observations from a re-analysis of the deposited data

How the results depend on the processing

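Alternatives were a pseudocount of 0.1, no filter, a minimum FPKM of 5, TPM, quantile normalization, median-ratio scaling, limma without its trend, the replicate number as a block, the length correction and leaving out each library. FPKM without depth gives no counting error. With TPM 3 of the 10 genes were called higher, and 1723 of all genes were higher and 7462 lower. With the length correction 1 of the 10 was lower, and at a minimum FPKM of 5, 3068 of all genes were lower, fewer genes being tested there. With TPM 6 of 30 adaptors and kinases were higher and 16 lower. Of 17 other inhibitors 5 were then higher and 10 lower, against 14.4% and 62.2% of all tested genes. With the length correction 18 of the 30 adaptors and kinases were higher, against 34.6% of all tested genes. There 2 of the 17 other inhibitors were lower, against 35.4%. Quantile normalization gave 2 lower of these 17 and 5 lower of 20 secreted or membrane targets, against 30% of all tested genes. Differences reversed with TPM for NFKB1 (-0.16), RELA (-0.14), NFKBIA (-0.02) and KRT18 (-0.24), with quantile normalization for KRT18 (-0.45), and with the length correction for REL (0.22), BIRC3 (0.08), OTUD7B (0.03), OTULIN (0.04) and KRT18 (-0.16). The difference between groups in the log2 ratio was -0.17 for NFKBIA to RELA and -0.18 for NFKBIA to REL with the length correction. That for NFKB1 to RELA was 0.15 with quantile normalization and 0.21 length-corrected, where the NFKB1 share was higher by 0.152 points. Leaving out a single library gave differences of -0.19 to 0.18 in the log2 ratio of NFKB1 to RELA. For the NFKB1 share it gave -2.67 to 0.501 points, and both were positive without siUSP32 library 2. The cause of these reversals was not tested. Leaving out one library left 6 to 7 of the 10 genes higher and 3 lower, and over all genes 3692 to 4276 higher and 4556 to 5083 lower. With the replicate number as a block 6 of the 10 were higher and 3 lower, and 4016 and 4979 of all genes. Deviations of same-numbered libraries correlated at -0.0766, 0.0706 and 0.119, and not every library correlated best with its own number, so the numbers were not taken as pairs. Leaving BCL2A1 out of the intracellular targets, an alternative chosen after seeing the data, gave 10 higher and 7 lower.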
